A study of Mus musculus with 27 samples.

Results

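The response of cultured mouse microglia to bacterial lipopolysaccharide (LPS) plus interferon-γ was compared between wild-type cells and cells of CB2-/- mice, gene by gene, as 1 interaction contrast: the stimulated minus the unstimulated level in CB2-/- cells, minus the same in wild-type cells. It rests on 12 of the 27 libraries of the study, 3 in each of 4 groups. The members were chosen by their library numbers in the titles and not by a measured value. Wild-type C57BL/6J cells were unstimulated (numbers 3012 to 3014) or received LPS_IFNg (3015 to 3017). Cells of the strain B6.Cg-Cnr2tm1Zim, labelled CB2-/- here, were unstimulated (2048 to 2050) or received LPS_IFNg (2051 to 2053). LPS was given at 100 ng/ml and interferon-γ at 20 ng/ml. The protocol gives stimulation for 30 min or 16 h and does not say which of these a library had. The stimulated libraries were entered here as 16 h. All cells came from cortex of newborn mice, grown as mixed glia for about 14 days, from which the microglia were shaken off and rested for 24 h before the stimulus. Genotype and number series coincide for the stimulated libraries: all wild-type ones carry numbers of a first series (3012 to 3023) and all CB2-/- ones of a second (2048 to 2188). In stimulated cells a difference between the genotypes and a difference between the series therefore cannot be told apart. Unstimulated wild-type cells are the exception, with 3 further libraries in the second series (replicates 4 to 6, numbers 2186 to 2188), which served as a second baseline. With that baseline the unstimulated genotypes are of 1 series by number, but the wild-type response spans both. Within that series the CB2-/- numbers run from 2048 to 2059, apart from 2186 to 2188. Genotype and block of numbers thus still coincide there, and the labels do not say if the 2 blocks were handled together. The labels do not say if the replicates of a group are separate cultures or animals, and p-values here reflect only the spread between libraries, which may be technical.

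LPS is sensed by Toll-like receptor 4, whose adaptors lead to NF-κB and to interferon regulatory factors, and interferon-γ acts through its receptor and the kinases JAK1 and JAK2. The 2 inputs meet at the genes for nitric oxide synthase, chemokines, interleukin-12 and antigen presentation, and microglia so treated lose many transcripts of their resting state. CB2, encoded by Cnr2, is a cannabinoid receptor coupled to inhibitory G proteins and found mainly on immune cells. The title of the study asks whether CB2 is needed for microglial activation through Toll-like receptors, and the interaction contrast is the form of that question for LPS with interferon-γ.

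Levels below are the authors' normalised counts per library, and changes are log2 fold changes or differences of log2(value + 1), ± SE, which understate the change of low genes. A gene was called at a Benjamini-Hochberg adjusted p under 0.05 in limma over the 14668 genes tested. For each gene 1 spread was estimated over all 27 libraries. Scatter among low values in 1 group therefore widens the SE of every comparison of that gene, also between groups whose own libraries lie close together. The summed normalised count of the 12 libraries ran from 6341300 to 9471790. As a rough guide to depth, a library's most frequent value above 0, rounded on the log scale, was taken as the step of 1 read. That gave 3.96 to 18.04 M reads, though only 25.7 to 64.4% of low values were whole steps. Between 15941 and 20387 genes were above 0. Mitochondrially encoded transcripts took 1.86 to 3.20% of the summed values in the wild-type libraries and 0.571 to 0.964% in the CB2-/- ones. Among the 12 libraries Gm19220, Gm26822 and Grip2, singled out after their values were seen, together took at most 0.00453% in wild type and 0.0741 to 20.3% in CB2-/-. In wild-type replicates 4 to 6 they took 6.07 to 31.1% and the mitochondrial transcripts 0.763 to 1.42%, nearer to the CB2-/- libraries of the same series. The 12 microglial markers, none at 0, summed to 105016 to 121288 in unstimulated and 56411 to 58141 in stimulated wild type and to 65237 to 69632 and 36828 to 39071 in CB2-/-, lower in CB2-/- in both states with no overlap. In replicates 4 to 6 the sum was 67502 to 85242. The 10 astrocyte markers summed to 284 to 1315 in unstimulated and 824 to 979 in stimulated wild-type libraries, and to 233 to 329 and 269 to 372 in CB2-/- ones. For the 10 fibroblast and meningeal markers these ranges were 28.1 to 3171 and 815 to 1099 in wild type and 108 to 165 and 127 to 157 in CB2-/-. Their part in the results was not tested. In such bulk libraries fewer cells of a type and less RNA per cell cannot be told apart.

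Cnr2 itself (chromosome 4, 135895394 to 135920207, plus strand, GRCm38) did not mark the genotype in these values. Its normalised counts were 178, 230.0 and 233 in unstimulated and 21.96, 18.3 and 20.7 in stimulated wild-type libraries, and 317, 411 and 454 and 217, 229 and 234 in the CB2-/- ones. The stimulated wild-type libraries stood lowest, and the unstimulated CB2-/- libraries all lay above the unstimulated wild-type ones. The difference in response was 2.54 ± 0.77, adjusted p = 0.0294 (limma, BH), and leaving out any 1 of 9 libraries put its adjusted p above 0.05, with values of 2.40 to 2.58. Counts summed over a gene include reads from outside a deletion, so they do not check the genotype, which rests on the labels.

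Most genes that rose or fell in CB2-/- microglia with LPS and interferon-γ did so in wild type too. The difference between the responses was called for 1810 of 14668 genes (12.3%), lower in CB2-/- for 1226 (8.36%) and higher for 584 (3.98%). Quantile scaling gave a more even split, 1002 lower and 813 higher, and it moved the median wild-type response over all genes from 0.05 to -0.06. In wild type 3186 genes rose (21.7% of those tested) and 2644 fell (18%), and in CB2-/- 1879 rose (12.8%) and 1592 fell (10.9%). Of the genes that rose, 1513 did so in both genotypes, which is 47.5% of those that rose in wild type and 80.5% of those that rose in CB2-/-. Of the genes that fell, 1117 were shared, 42.2% of the wild-type and 70.2% of the CB2-/- list. The genes that rose in wild type, which were chosen on that response, had a median log2 change of 1.36 there and 0.60 in CB2-/-. The median change of those that fell was -1.29 in wild type and -0.61 in CB2-/-. Over the genes chosen on a call in CB2-/- the medians in wild type and CB2-/- were 1.47 and 1.17 for those that rose and -1.03 and -1.004 for those that fell.

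**Figure D1:**
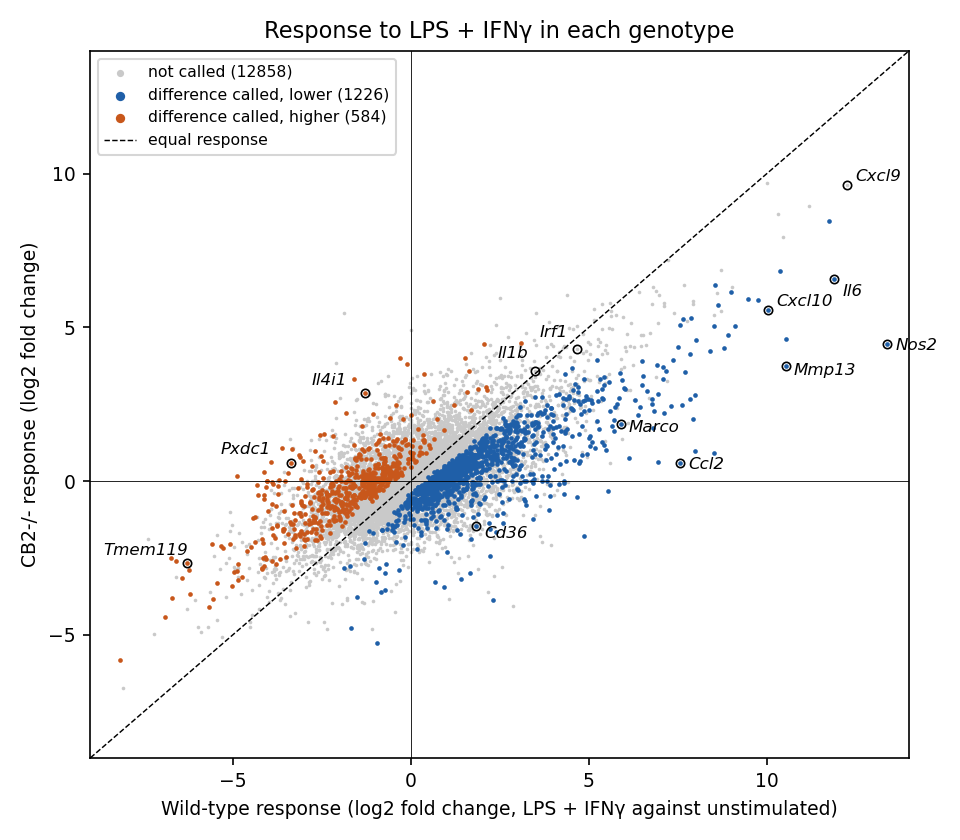
Response of each of 14668 genes to LPS plus interferon-γ in wild type (x axis, log2 fold change) and in CB2-/- microglia (y axis, log2 fold change), each over 3 stimulated and 3 unstimulated libraries. Blue points are the 1226 genes whose response was called lower and orange points the 584 called higher; blue points lie below the line of equal response mostly on its right side, and orange ones above it mostly on its left.

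Most called genes were ones that wild-type cells raised, where 21.7% of all genes tested rose in wild type and 18% fell. The wild-type response is subtracted in the contrast. That by itself favours genes that rose there among those called lower, and genes that fell among those called higher. The classes and their medians were drawn from these same values. Of the 1810 genes, 1075 rose in wild type with a lower difference, and in CB2-/- 483 of these rose, 528 had no call and 64 fell. Their median log2 change was 1.58 in wild type and 0.38 in CB2-/-. Another 501 genes fell in wild type with a higher difference, of which 181 fell, 296 had no call and 24 rose in CB2-/-; here the medians were -1.79 and -0.31. Among genes called in wild type, few had a larger response of the same direction in CB2-/-, with 18 that rose more and 22 that fell more there. The remaining 194 had no call in wild type, and in CB2-/- 52 of these rose, 112 fell and 30 had no call.

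The sensing of the stimulus was described by lists of receptors and signal transducers. Counts in these lists and in those below stand against 8.36% of all genes called lower and 3.98% called higher. Of 20 genes of TLR4 sensing and its adaptors, 2 had a higher and 4 a lower difference, with a median difference of -0.13 against -0.02 over all genes; under quantile scaling the list's median was 0.12. Tlr4 itself fell in both genotypes, by a log2 change of -1.42 ± 0.22 in wild type and -1.12 ± 0.22 in CB2-/-, and the difference of 0.30 ± 0.31 did not pass (adjusted p = 0.624, limma, BH). Cd180, a relative of TLR4 that modulates LPS responses, stood at 687, 902 and 851 in unstimulated and 2052, 2233 and 2204 in stimulated wild type, and at 1521, 1394 and 1397 and 1034, 962 and 1016 in CB2-/-. It rose in every stimulated wild-type library and fell in every stimulated CB2-/- library, a difference of -1.94 ± 0.20, adjusted p = 3.58e-07 (limma, BH). The adaptor Ticam2, which links TLR4 to interferon induction, differed by -0.94 and the kinases Irak2 and Irak4 by -0.92 and 0.93. Irak3, a kinase-dead inhibitor of the pathway, was at -0.77 and Ly86, the partner protein of CD180, at 0.87. None of Ticam2, Irak2 and Irak4 was called with wild-type replicates 4 to 6 as baseline, where they stood at -0.52, 0.016 and 0.52, and without wild-type unstimulated replicate 1 Irak4 missed the threshold (0.82).

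Among 16 genes of the interferon-γ receptor and JAK-STAT pathway 12 rose in wild type and 10 in CB2-/-, and the difference was lower for 7 and higher for 1 (5 and 3 under quantile scaling). The one higher was Ifngr1, the ligand-binding receptor chain. Its levels were 2456, 2098 and 2089 unstimulated and 407, 395 and 395 stimulated in wild type, against 995, 1005 and 1087 and 594, 621 and 623 in CB2-/-. It fell in both genotypes from a wild-type level above that of CB2-/- to one below it, a difference of 1.72 ± 0.15, and 1.11 with replicates 4 to 6. The kinase Jak2 rose by 2.996 in wild type and 1.797 in CB2-/-, and its difference of -1.20 ± 0.22 was called. Irf1, a transcription factor that interferon-γ induces, rose in both genotypes, by 4.66 ± 0.20 and 4.29 ± 0.20, and its difference of -0.38 ± 0.28 did not pass (adjusted p = 0.474, limma, BH). The feedback inhibitors Socs1 and Socs3, which act on the JAK kinases, had differences of -4.16 ± 0.92 and -2.42 ± 0.32. Socs3 reached 8577, 8128 and 8805 in stimulated wild-type and 7227, 7476 and 7679.6 in stimulated CB2-/- libraries, while without stimulus it stood at 181, 314 and 291 and 1101, 1355 and 1147. The NF-κB list of 21 factors and feedback genes rose in both genotypes, 20 members in each, with a lower difference for 7 and a median difference of -0.34. Its largest differences were those of the signal adaptor Traf1 (-3.69, and -2.03 with replicates 4 to 6), the RNase Zc3h12a (-1.84), the NF-κB inhibitor Tnfaip3 (-1.57) and Tnip3 (-1.53). Tnfaip3 was not called with replicates 4 to 6 (-0.58).

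Interferon-induced genes rose in both genotypes, and rose less in CB2-/-. In the list of 34 type I interferon response genes 34 rose in wild type and 32 in CB2-/-, and the difference was lower for 29 and higher for none, with a median of -1.71. All 18 GTPases of the interferon-γ response, which attack the vacuoles of intracellular pathogens, rose in both genotypes, with a lower difference for 11 and a median of -2.23. Of 23 genes of MHC class I presentation 23 rose in both, with a lower difference for 14 and a median of -0.66; quantile scaling gave 8 lower, 2 higher and a median of -0.35. The differences were not those of the stimulated levels alone. Without stimulus 31 of the 34 type I genes were called higher in CB2-/- than in wild-type replicates 1 to 3, where 12.2% of all genes were called higher and 10.3% lower. With stimulus 8 of the 34 were called lower and none higher, where 9.47% of all genes were called lower and 5.98% higher.

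Ifit3, an interferon-induced protein with tetratricopeptide repeats, showed this arrangement. Its levels were 1007, 582 and 643 unstimulated and 9155, 9881 and 12000.2 stimulated in wild type, and 3839, 3997 and 3849.7 and 8256, 8624 and 8741 in CB2-/-. The stimulated libraries of the 2 genotypes lay close, while every unstimulated CB2-/- library lay far above every unstimulated wild-type one, so that the log2 change was 3.83 ± 0.19 in wild type and 1.13 ± 0.19 in CB2-/-. Rsad2, the antiviral enzyme viperin, went from 169, 193 and 148 to 16492, 15967 and 18762 in wild type and from 2199, 2143 and 2186 to 16788, 17079 and 15757 in CB2-/-. Here the stimulated groups overlapped and the unstimulated ones did not, and the difference was -3.72 ± 0.39, adjusted p = 4.20e-07 (limma, BH). Oasl1, a relative of the oligoadenylate synthetases, differed in both states, with 5118, 4713 and 4795 against 2244, 2596 and 2208 when stimulated and a difference in response of -3.31 ± 0.30. The nucleic acid sensor Zbp1 had -3.20 ± 0.35. Among the GTPases, Gbp2 stood at 53.5, 159 and 150.1 unstimulated and 37899, 40269 and 42841 stimulated in wild type and at 708, 839 and 716 and 24782, 24520.5 and 26171 in CB2-/-. Its difference was -3.46 ± 0.47, close to those of Gbp4 (-3.53 ± 0.43), Iigp1 (-3.85 ± 0.76) and Ifi47 (-3.37 ± 0.34). Near-identical copies exist in the Gbp, Ifi, H2, Ccl and Hspa1 families, and reads may have been split between them, so the values of single members are uncertain. In the class I list the peptide transporter Tap1 differed by -1.84 ± 0.22, and the non-classical chains H2-Q6, H2-Q7 and H2-T23 by -2.34, -1.75 and -2.04. H2-Q6 was higher in CB2-/- in both states, with 4662, 5585 and 5686 against 567, 789.5 and 642 unstimulated and 20988, 21508 and 21330.3 against 12619.8, 13139 and 14591 stimulated.

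Wild-type replicates 4 to 6 differed from replicates 1 to 3, with 5.66% of all genes called lower in them and 6.33% higher, and the interferon lists had lower differences against either. The contrasts with the 2 baselines share the stimulated wild-type and all CB2-/- libraries and the estimate of spread. A call with both is therefore not an independent repeat, here and below. Of the called type I genes 28 of 29 were called again in the same direction, of the GTPases 11 of 11 and of the class I genes 14 of 14. The medians were then -2.00, -2.47 and -1.08. Ifit3 stood at 706, 345 and 546 in those libraries and Gbp2 at 142, 98.2 and 112, near or below replicates 1 to 3 and below the unstimulated CB2-/- libraries. Over all genes 1151 (7.85%) were then lower and 510 (3.48%) higher. The 711 genes called lower with both baselines are 58.0% of the 1226, and the 230 called higher with both are 39.4% of the 584.

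The promoters of 4 of these genes and of Mmp13 and Il6, described next, are printed because their members moved together and because the binding element of the interferon-activated factors is a sequence that can be read. They are the 250 bases before the annotated start, from RefSeq on GRCm38.p6, 5′ to 3′ on the gene's strand. Capitals mark the core of the interferon-stimulated response element on either strand, which is GAAA, any 2 bases and GAAA, and in Il6 a κB element, which is GGGA, any base and TTTCC.
Cxcl10 (chr5:92348890-92349139, minus strand): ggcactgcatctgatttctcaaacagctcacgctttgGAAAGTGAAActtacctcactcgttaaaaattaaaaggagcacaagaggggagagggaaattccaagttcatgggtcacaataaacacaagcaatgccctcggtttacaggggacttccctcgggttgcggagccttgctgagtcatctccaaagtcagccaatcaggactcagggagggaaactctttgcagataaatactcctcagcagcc
Ifit3 (chr19:34583279-34583528, plus strand): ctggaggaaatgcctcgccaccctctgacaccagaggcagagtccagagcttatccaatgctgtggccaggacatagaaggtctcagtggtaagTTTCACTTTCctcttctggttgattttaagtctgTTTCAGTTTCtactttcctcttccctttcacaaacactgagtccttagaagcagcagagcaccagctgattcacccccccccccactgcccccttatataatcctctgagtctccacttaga
Rsad2 (chr12:26456453-26456702, minus strand): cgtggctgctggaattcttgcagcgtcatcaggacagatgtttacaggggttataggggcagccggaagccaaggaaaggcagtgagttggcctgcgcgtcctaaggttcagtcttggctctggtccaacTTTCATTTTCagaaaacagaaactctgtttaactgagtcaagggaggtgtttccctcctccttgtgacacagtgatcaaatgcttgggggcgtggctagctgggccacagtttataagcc
Gbp2 (chr3:142620413-142620662, plus strand): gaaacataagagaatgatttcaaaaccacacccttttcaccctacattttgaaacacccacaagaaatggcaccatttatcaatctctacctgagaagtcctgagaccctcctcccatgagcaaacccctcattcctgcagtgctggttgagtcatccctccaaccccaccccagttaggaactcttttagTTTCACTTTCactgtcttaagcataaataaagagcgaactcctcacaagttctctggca
Mmp13 (chr9:7272264-7272513, plus strand): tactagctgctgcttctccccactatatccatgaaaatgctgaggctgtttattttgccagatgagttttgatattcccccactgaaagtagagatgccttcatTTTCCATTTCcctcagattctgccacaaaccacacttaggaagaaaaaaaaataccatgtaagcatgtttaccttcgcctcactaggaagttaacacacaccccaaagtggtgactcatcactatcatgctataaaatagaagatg
Il6 (chr5:30012864-30013113, plus strand): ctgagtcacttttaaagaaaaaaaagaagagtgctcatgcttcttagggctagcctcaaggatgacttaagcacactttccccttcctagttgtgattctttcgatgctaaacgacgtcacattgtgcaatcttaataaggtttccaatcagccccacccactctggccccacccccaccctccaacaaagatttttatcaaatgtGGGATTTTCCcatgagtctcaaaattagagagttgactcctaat
The interferon element begins 213 bases before the start in Cxcl10, 156 and 122 in Ifit3, 120 in Rsad2, 59 in Gbp2 and 146 in Mmp13, and the κB element begins 44 bases before it in Il6. Each of the 6 promoters, which were picked for display, also holds 1 match to TGANTCA, the AP-1 element. Over the lists it was less common, in 5 of 24 type I interferon, 2 of 10 GTPase and 2 of 13 chemokine promoters. Of the cytokine promoters 3 of 12 held it, and of the protease promoters 4 of 16. Of 32851 promoters of the same length 2.98% held the interferon element, 0.356% the κB element and 6.75% TGANTCA, with both strands searched and matches of different motifs free to overlap. The interferon element was found in 12 of the 24 type I interferon promoters in the table, in 9 of 10 GTPase promoters and in 3 of 20 class I promoters. Of the 16 protease promoters 1 held it, and of the 12 proinflammatory cytokine promoters 2 held the κB element. A match is a description of the letters and not a binding site.

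**Figure D2:**
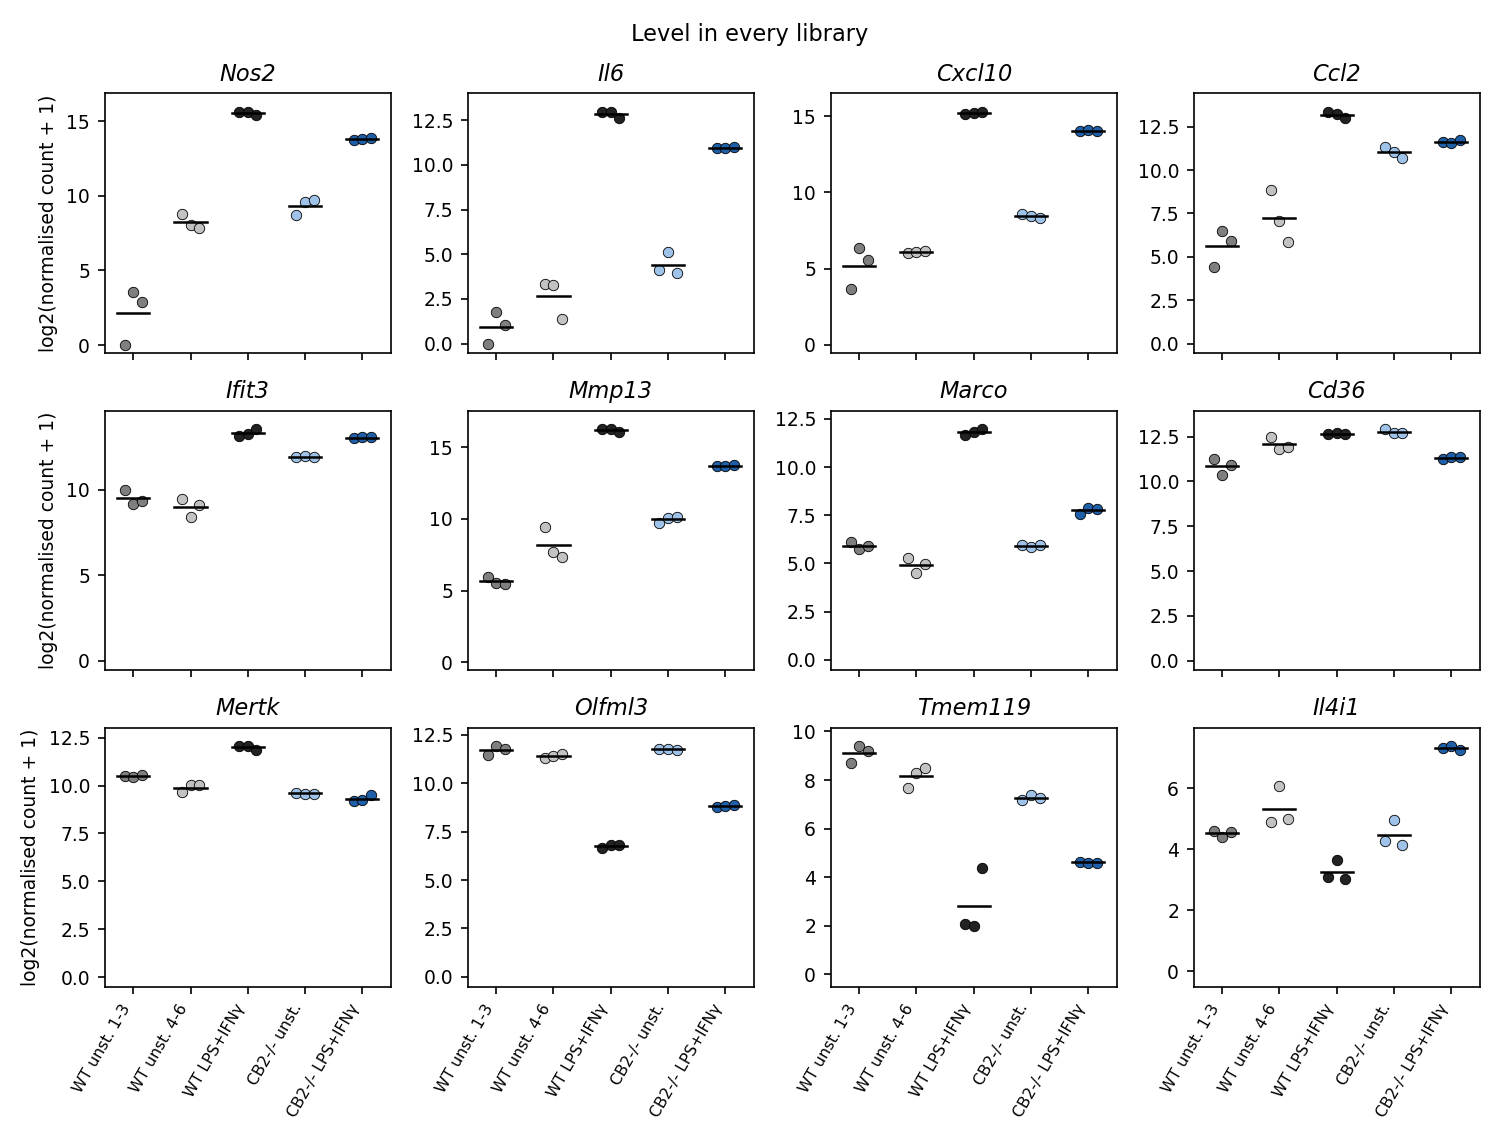
Level of 12 genes in each library as log2(normalised count + 1), by group: unstimulated wild type (WT unst.) replicates 1 to 3 and 4 to 6, stimulated wild type, and unstimulated and stimulated CB2-/-; points are libraries and bars the mean of 3. Between CB2-/- and wild type with replicates 1 to 3, Marco and Olfml3 overlap when unstimulated and separate when stimulated, Ifit3 separates far more when unstimulated, and Nos2, Ccl2 and Mmp13 separate in both states; replicates 4 to 6 lie lower for Marco and higher for Nos2 than replicates 1 to 3.

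Chemokines had the lowest median of the 24 lists with replicates 1 to 3, -2.33, with a lower difference for 10 of 19 and a higher one for none; 18 rose in wild type and 13 in CB2-/-. Ccl2, which draws monocytes (chromosome 11, 82035571 to 82037453, plus strand), stood at 20.5, 88.4 and 59.3 in unstimulated and 10331, 9429 and 8066 in stimulated wild type. The CB2-/- libraries held 2593, 2123 and 1632 and 3100.0, 3024 and 3369. Unstimulated CB2-/- cells already lay well above unstimulated wild type, and stimulated ones lay below stimulated wild type, so that the log2 change was 7.57 ± 0.74 in wild type and 0.60 ± 0.74, with no call, in CB2-/-. The stimulated levels, though without overlap, were not called different (-1.55 ± 0.74, adjusted p = 0.173, limma, BH). The difference in response was -6.96 ± 1.04, adjusted p = 5.08e-05 (limma, BH). The related monocyte chemokines Ccl7 and Ccl12 had differences of -7.62 ± 1.26 and -4.88 ± 0.83, and Ccl12 stayed at 971, 1049.7 and 913 in stimulated CB2-/- against 6145, 6002 and 5273 in wild type. The stimulated level of Ccl7 was not called different (-1.81, adjusted p = 0.187, limma, BH). Cxcl10, a CXCR3 ligand of activated T cells, went from 11.8, 81.0 and 45.7 to 36986, 38479 and 39416 in wild type and from 389, 354 and 319 to 16719.6, 17304 and 16421 in CB2-/-. It rose strongly in both, by 10.03 ± 0.41 and 5.57 ± 0.41, with a difference of -4.46 ± 0.58. Ccl5 had no call between unstimulated CB2-/- cells and replicates 1 to 3 and differed less, by -0.84 ± 0.14, adjusted p = 1.76e-04 (limma, BH), and by -2.59 with replicates 4 to 6. The other called chemokines were Ccl3 (-2.33) and Ccl4 (-3.12), which draw monocytes and T cells, Cxcl2 (-2.58) and Cxcl3 (-4.11), which draw neutrophils, and Cxcl11 (-3.52), which shares the receptor of Cxcl10. Cxcl9 stood at 27510.3, 26728 and 27450.5 in stimulated wild type and 7727, 7982 and 8169 in stimulated CB2-/-, but 1 unstimulated wild-type library held 32 against 1.73 and 0.947 in the others, and the difference of -2.61 ± 1.31 did not pass (adjusted p = 0.23, limma, BH). Without that library it was -3.89 and passed. With replicates 4 to 6 the chemokine median was -2.55, and 8 of the 10 calls were made again.

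Of 16 proinflammatory cytokines 14 rose in wild type and 13 in CB2-/-, with a lower difference for 6 and a higher one for 1, Ebi3 (1.11), a subunit of interleukin-27. Il6 stood at 0, 2.43 and 1.07 unstimulated and 7976, 7846 and 6269 stimulated in wild type, and at 16.2, 34.3 and 14.4 and 1971, 1981 and 2031 in CB2-/-. The groups did not overlap in either state, and the difference was -5.33 ± 0.94. The stimulated levels of Il6 were not called different (-1.88, adjusted p = 0.0591, limma, BH). Tnf went from 129, 81.3 and 72.5 to 11894, 11751 and 10030.2 in wild type and from 228, 226 and 179 to 2888, 2966 and 2740.3 in CB2-/-, lower in every stimulated CB2-/- library, with a difference of -3.16 ± 0.29. Il1a differed by -4.46 ± 1.21 and Lif, a cytokine of the interleukin-6 family, by -5.37 ± 1.61; the call of Il1a was lost without wild-type unstimulated replicate 1 (-3.59) and that of Lif without any 1 of 8 libraries, and neither was called with replicates 4 to 6 (-2.81 and -1.58). Osm, a cytokine of the same family, was also lower (-1.71). Il12b, the p40 chain of interleukin-12, was listed at 0 in all 3 unstimulated wild-type libraries and at 0.746, 0.480 and 0 in CB2-/-. With stimulus it reached 3996, 3774 and 2764 in wild type and 452, 473 and 536 in CB2-/-, a stimulated log2 difference of -2.83 ± 0.59, adjusted p = 0.00147 (limma, BH). Il12rb1, a chain of the interleukin-12 receptor, was likewise listed at 0 in unstimulated wild type and reached 147, 98.1 and 126 there against 8.34, 7.10 and 13.4 in CB2-/-. Il1b did not follow the group. It went from 4712, 2831 and 3782 to 44118, 45454 and 35979 in wild type and from 2063, 2189.5 and 1773 to 23202, 23615 and 25419.5 in CB2-/-, changes of 3.49 ± 0.34 and 3.59 ± 0.34. The difference was 0.094 ± 0.48 (adjusted p = 0.939, limma, BH), and with replicates 4 to 6 it was -2.47 and called.

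Of 12 anti-inflammatory cytokines and decoys the difference was lower for 4 and higher for 1. The interleukin-1 receptor antagonist Il1rn rose by 7.09 in wild type and 3.72 in CB2-/-, a difference of -3.37 ± 0.26, and the interleukin-18 binding protein Il18bp differed by -1.44 ± 0.29. Tgfb1 rose in wild type (0.43) and fell in CB2-/- (-0.64). The interleukin-4 receptor chain Il4ra was the other lower one (-0.82) and the interleukin-10 receptor chain Il10ra the one higher (0.90 ± 0.15); the latter was at -0.034 with replicates 4 to 6. Il10 stayed low, at 53.3, 43.9 and 76.5 in stimulated wild type and 41.8, 40.3 and 22.1 in CB2-/-, and its difference of -2.10 did not pass (adjusted p = 0.246, limma, BH).

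The gene with the lowest difference of all was Nos2 (chromosome 11, 78920787 to 78960254, plus strand), which encodes inducible nitric oxide synthase. It stood at 0, 10.8 and 6.47 in unstimulated and 49456, 49814 and 44385 in stimulated wild type, and at 424, 764 and 822 and 13527, 14005 and 15102 in CB2-/-. Every stimulated CB2-/- library held less than every stimulated wild-type one, and every unstimulated CB2-/- library held far more than any of the 3 unstimulated wild-type ones. The difference was -8.93 ± 1.16, adjusted p = 7.56e-06 (limma, BH), of which 7.18 ± 0.82 lay in the unstimulated and -1.75 ± 0.82 in the stimulated comparison, the latter not called (adjusted p = 0.163, limma, BH). The SE of 0.82 is the same for both parts because the spread is pooled, and it includes the scatter of the low unstimulated values. Wild-type replicates 4 to 6 held 443, 266 and 231, and against them the difference was -2.85 and not called (adjusted p = 0.126, limma, BH). Of the 19 enzymes of nitric oxide, oxidant and itaconate production the difference was lower for 10 and higher for 2, the mitochondrial arginase Arg2 (2.25) and the oxidase subunit Ncf4 (0.68); under quantile scaling 8 were lower and 5 higher. The arginine transporter Slc7a2, which supplies nitric oxide synthesis, differed by -4.07 ± 0.80, the prostaglandin synthases Ptgs2 and Ptges by -4.18 ± 0.71 and -4.16 ± 0.68, and Acod1, which makes itaconate, by -3.41 ± 0.47. These 4 were called with both baselines, with -2.62 for Slc7a2 and -2.12 for Ptges against replicates 4 to 6. Ptgs2 reached 65465, 67534 and 62151 in wild type and 29454, 28842 and 27879.6 in CB2-/-. Arg1, the arginase that competes for the same substrate, stood at 11.6, 105 and 128 unstimulated and 829, 775 and 513 stimulated in wild type and at 14326, 19155 and 19471 and 9304, 9288 and 11229.8 in CB2-/-. Its difference of -4.45 ± 1.68 did not pass (adjusted p = 0.0912, limma, BH), and replicates 4 to 6, at 25227, 19648 and 19782, lay above the unstimulated CB2-/- libraries, not below them as replicates 1 to 3 did.

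The protease with the lowest difference was Mmp13. This collagenase (chromosome 9, 7272514 to 7283331, plus strand) stood at 60.1, 45.4 and 43.5 unstimulated and 78179, 77974 and 67179 stimulated in wild type, and at 841, 1050.3 and 1145 and 13071, 13178 and 13899.7 in CB2-/-. It was higher in CB2-/- without stimulus and lower with it, with no overlap in either state, and it differed by -6.80 ± 0.56, adjusted p = 1.40e-08 (limma, BH). With replicates 4 to 6, at 695, 209 and 162, the difference was -4.28 and called. Of 19 proteases and antiproteases 6 had a lower and none a higher difference. The neutrophil-type collagenase Mmp8 rose in wild type (3.92) and had no call in CB2-/- (-0.48); its difference was -4.40 ± 0.53, and -2.61 with replicates 4 to 6. The stromelysin Mmp10 and the macrophage elastase Mmp12 differed by -6.65 ± 1.34 and -4.82 ± 0.66, but neither was called with replicates 4 to 6 (-2.80 and -0.0066). Among the other genes with the lowest differences, the uridine phosphorylase Upp1 differed by -5.92 ± 1.05, the transcript AA467197 by -5.93 ± 0.76 and 2010005H15Rik by -5.84 ± 1.15. With replicates 4 to 6 the latter pair stood at -2.53 and -3.53. The membrane glycoprotein Pdpn stood at 0, 112 and 30.9 in unstimulated and 4239, 3886 and 3602 in stimulated wild type, and at 13.5, 28.2 and 2.50 and 26.8, 22.1 and 16.8 in CB2-/-, a difference of -7.01 ± 1.66 that was not called with replicates 4 to 6 (-4.17). The fibroblast and meningeal marker sum of the stimulated libraries was likewise higher in wild type, 815 to 1099 against 127 to 157, and its part in this difference was not tested.

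Several scavenger receptors differed between the genotypes in the stimulated state. Marco, a scavenger receptor for bacteria and particles (chromosome 1, 120474538 to 120505024, minus strand), held 67.7, 52.9 and 58.8 in unstimulated wild type and 60.2, 56.2 and 60.2 in unstimulated CB2-/-. With stimulus it reached 3265, 3557 and 4019 in wild type and 186, 235 and 229.6 in CB2-/-. The unstimulated groups overlapped and the stimulated ones were far apart, with a difference in response of -4.04 ± 0.26, adjusted p = 2.90e-10 (limma, BH), and -5.04 with replicates 4 to 6, at 37.3, 21.7 and 30.5. Cd36, a receptor for oxidised lipids and fatty acids, moved in opposite directions. Its levels were 2449, 1311 and 1910.4 unstimulated and 6495, 6626 and 6362 stimulated in wild type, and 7786, 6661 and 6742 and 2426, 2665 and 2632 in CB2-/-. It rose in wild type, with a log2 change of 1.83 ± 0.20, and fell in CB2-/-, with -1.45 ± 0.20, a difference of -3.28 ± 0.28, and -2.03 with replicates 4 to 6. Mertk, a receptor for the uptake of dying cells, went from 1472, 1393 and 1511 to 4229, 4291 and 3762 in wild type and from 789.7, 765 and 762 to 585, 602 and 725 in CB2-/-. It rose in wild type (1.49 ± 0.14) and had no call in CB2-/- (-0.28 ± 0.14), and the stimulated groups differed by -2.69 ± 0.14. Of the 18 phagocytic and scavenger receptors 12 rose in wild type and 6 in CB2-/-, 4 and 6 fell, and the difference was lower for 11 and higher for 1, the lipoprotein receptor Scarb1 (1.19). Quantile scaling gave 9 lower and 3 higher. With replicates 4 to 6, 10 of the 11 were called again, and 8 of those 10 were also called lower in the stimulated comparison. The C-type lectin Clec4e (-2.65 ± 0.34) and the oxidised lipoprotein receptor Olr1 (-2.62 ± 0.74) were others with a lower difference, with -1.29 and -1.44 against replicates 4 to 6; Olr1 was not called there, nor without any 1 of 3 libraries.

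Complement genes followed in part, with 4 of 16 lower and none higher (25% called, against 12.3% of all genes), or 4 and 2 under quantile scaling. The alternative pathway stabiliser Cfp was at 2002, 4533 and 3508 unstimulated and 4147, 3633 and 3899 stimulated in wild type, and at 1956, 2154 and 2031 and 577, 621 and 752 in CB2-/-. It had no call in wild type and fell in CB2-/-, a difference of -1.96 ± 0.30. The anaphylatoxin receptor C5ar1 did likewise, with changes of -0.18 and -1.32 and a difference of -1.14 ± 0.18, while C3ar1 rose slightly in wild type and fell slightly in CB2-/- (-0.84 ± 0.12, not called with replicates 4 to 6). Factor B, Cfb, differed by -3.76 ± 1.19, a call lost without any 1 of 9 libraries and with replicates 4 to 6 (-1.802). Of 20 genes of the disease-associated state 4 had a lower and none a higher difference, the integrin Itgax (-2.76 ± 0.87), the galectin Lgals3 (-1.795 ± 0.23), the tetraspanin Cd63 (-0.92 ± 0.17, and -1.43 with replicates 4 to 6) and Spp1, whose changes are given later; the call of Itgax was lost without any 1 of 9 libraries and that of Lgals3 with replicates 4 to 6 (-0.46). In this list 20% were called, and quantile scaling gave 2 lower and 2 higher.

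Costimulatory and checkpoint molecules were mixed, with 4 lower and 2 higher of 12, the latter being Icosl (2.13), the ligand of ICOS, and the checkpoint protein Vsir (1.98). Cd86, a ligand of CD28, went from 536, 589 and 666 to 8632, 8789 and 8435 in wild type and from 1064, 1009 and 944 to 3316, 3086 and 3284 in CB2-/-, a difference of -2.17 ± 0.31 that lay mostly in the stimulated comparison (-1.42). Cd274, the checkpoint ligand PD-L1, differed by -2.94 ± 0.28 (-1.34 with replicates 4 to 6), Cd40 by -2.19 ± 0.61 (not called, at -1.85, without wild-type unstimulated replicate 2) and Tnfsf9 by -2.40 ± 0.22. The stimulated levels of Cd274 and Cd40 were not called different, at -0.25 and -0.45, and Tnfsf9 had the opposite sign with replicates 4 to 6 (0.43, not called). Of 11 MHC class II genes 2 had a lower and 1 a higher difference, 27.3% called against 12.3% of all genes. H2-Ab1, a class II chain, stood at 29.3, 25.99 and 16.0 unstimulated and 708, 667 and 652 stimulated in wild type, and at 518, 712 and 759 and 2222, 2207 and 2346 in CB2-/-. It was higher in CB2-/- in both states and its difference in response was -3.03 ± 0.39. Against replicates 4 to 6, at 468, 394 and 301, it was 0.96 and not called. The class II chain H2-Eb1 differed by -4.03 ± 0.98. The invariant chain Cd74, the one with a higher difference (0.55 ± 0.17), turned to -2.13 with replicates 4 to 6, where it was called lower, and without any 1 of 6 libraries it lost its call. Ciita, the class II master regulator, was listed at 0 in all unstimulated CB2-/- libraries and stood at 39.99, 59.4 and 68.8 in stimulated wild type and 11.3, 10.98 and 4.43 in stimulated CB2-/-, a stimulated log2 difference of -2.59 ± 0.78, adjusted p = 0.025 (limma, BH).

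Most genes typical of resting microglia fell in both genotypes, and some of them fell less in CB2-/-. Of 26 homeostatic genes 13 were called lower and 2 higher in unstimulated CB2-/- cells than in wild-type replicates 1 to 3, against 10.3% and 12.2% of all genes. When stimulated, 6 were called lower and 5 higher, against 9.47% and 5.98%, with a median of -0.08. In response to the stimulus 18 of the 26 fell in each genotype and 2 rose, and the difference was higher for 7 and lower for 1, Mertk, with a median of 0.85. Besides those given next, the higher ones were the growth factor receptor Csf1r (1.55), the fractalkine receptor Cx3cr1 (1.61), the transcription factor Sall1 (1.27) and the TGF-β receptor Tgfbr1 (1.31). Csf1r and Cx3cr1 were lower in unstimulated CB2-/- cells (-1.55 and -2.16), and their stimulated levels were not called different (0.002 and -0.55). Sall1 had no call in wild type (-0.065) and rose in CB2-/- (1.21), and its stimulated level was called lower in CB2-/- (-0.74). The stimulated level of Tgfbr1 was called higher (0.57). Tmem119, a microglial surface protein (chromosome 5, 113793729 to 113800516, minus strand), stood at 420.5, 677 and 581 unstimulated and 3.18, 2.96 and 19.8 stimulated in wild type, and at 143, 166 and 152 and 23.7, 23.3 and 23.2 in CB2-/-. The unstimulated CB2-/- libraries were lower and the stimulated ones higher than wild type, with no overlap, and the difference was 3.63 ± 0.73. Olfml3, a secreted olfactomedin, held 2849.7, 3862 and 3519 and 3532, 3480.3 and 3412 in the unstimulated groups and 99.0, 113 and 112 and 429, 445 and 476 in the stimulated ones. Between these groups it separated with the stimulus alone, a difference of 2.01 ± 0.18, adjusted p = 3.75e-08 (limma, BH), and 1.70 with replicates 4 to 6. The receptor Gpr34 differed by 2.92 ± 0.84, with a call lost without any 1 of 6 libraries and with replicates 4 to 6 (1.52). P2ry12, the ADP receptor of resting microglia, fell in both genotypes (-3.40 and -1.57) and its difference of 1.83 ± 0.70 did not pass (adjusted p = 0.0962, limma, BH). Over the list with replicates 4 to 6, 5 were higher and 5 lower, with a median of 0.39.

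Il4i1, a secreted oxidase of aromatic amino acids (chromosome 7, 44816387 to 44840809, plus strand), rose in CB2-/- cells and had no call in wild type. It stood at 23.3, 20.1 and 22.9 unstimulated and 7.48, 11.5 and 7.08 stimulated in wild type, and at 18.3, 30.5 and 16.7 and 159.9, 168 and 153 in CB2-/-. The unstimulated groups overlapped, and each stimulated CB2-/- library lay far above each stimulated wild-type one. The difference was 4.15 ± 0.86, adjusted p = 0.00171 (limma, BH), and 4.94 with replicates 4 to 6. Pxdc1, a protein with a PX domain, went from 259, 258 and 278 to 26.3, 20.0 and 29.1 in wild type and from 157, 187 and 219 to 299.6, 304 and 248 in CB2-/-. It fell in wild type (-3.36 ± 0.27) and had no call in CB2-/- (0.60 ± 0.27); the difference was 3.96 ± 0.39, and 2.31 with replicates 4 to 6. The membrane protein Tmem176b and Csad, an enzyme of taurine synthesis, fell in wild type (-3.74 and -3.52) and had no call in CB2-/- (-0.14 and 0.014). Their differences were 3.60 ± 0.28 and 3.53 ± 0.57, and 1.50 and 1.75 with replicates 4 to 6. Col27a1, a fibrillar collagen, fell in wild type (-2.54) and rose in CB2-/- (1.49), a difference of 4.03 and, with replicates 4 to 6, 1.99. The other genes of highest difference were the calpain Capn3 (4.24 ± 1.30), Abhd15 of the hydrolase family (3.99 ± 0.94), Gm31374 (3.66 ± 0.82) and the GTPase-activating protein Arhgap19 (3.34 ± 0.67). Of these last 4 Arhgap19 alone was called with both baselines (2.14 with replicates 4 to 6), and Capn3 lost its call without any 1 of 8 libraries.

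The genes that rose more in CB2-/- were led by the vanin Vnn3 (2.06 in wild type and 4.45 in CB2-/-), the transporter Mfsd7a (1.63 and 3.58), the hexose transporter Slc2a6 (3.10 and 4.49), the efflux pump Abcc5 (1.57 and 2.89) and Orai2, a subunit of store-operated calcium channels (0.74 and 2.04). Mfsd7a and Orai2 were called with both baselines, and Slc2a6 lost its call without any 1 of 5 libraries. Orai2 held 1147, 1114 and 1133 in stimulated wild type and 1578, 1675 and 1675 in stimulated CB2-/-. Genes that fell more in CB2-/- were led by the phagocyte receptor Cd93 (-0.99 in wild type and -3.28 in CB2-/-), osteopontin, Spp1 (-1.52 and -3.75, with no call for the difference without wild-type unstimulated replicate 1, -2.10), the inhibitory receptor Cd200r1 (-0.90 and -2.84), Ctla2b (-1.32 and -2.54) and the lysosomal protease Ctsl (-0.46 and -1.50). Among these 5 Ctla2b was called with both baselines, and the differences of Cd93 and Ctsl were -0.020 and -0.0048 with replicates 4 to 6.

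Metabolic and stress genes gave large differences, many of which depended on the baseline. Of 22 genes of glycolysis and the hypoxia response 20 rose in wild type and 8 in CB2-/-, and the difference was lower for 17 and higher for none, with a median of -1.39. Pgk1, a glycolytic kinase, went from 1735, 2449.6 and 2204 to 16862, 16985 and 14973 in wild type and from 10369, 12726 and 12452 to 13817, 13435 and 13958 in CB2-/-. The unstimulated CB2-/- libraries were near the stimulated level already, and so were wild-type replicates 4 to 6, at 8983, 12066 and 10763. With those replicates the difference of -2.73 ± 0.23 became -0.41 and was not called, the lactate exporter Slc16a3 went from -2.33 to 0.37 and the mitophagy receptor Bnip3 from -2.21 to 1.19, and over the list 2 were higher and 2 lower, with a median of 0.20. Hk3, a hexokinase of myeloid cells, was called with both (-2.65 and -1.45). Of 25 genes of cholesterol synthesis and efflux 14 had a higher and 2 a lower difference, with a median of 1.52; 19 fell in wild type and 3 in CB2-/-. Insig1 and Mvd, a regulator and an enzyme of sterol synthesis, fell in wild type and rose in CB2-/-, with differences of 2.32 ± 0.32 and 2.21 ± 0.43, and the isomerase Idi1 differed by 2.25 ± 0.60. None of these 3 was called with replicates 4 to 6, and the list then gave 3 higher and 2 lower, with a median of 0.09. The lower pair was Ch25h and the efflux transporter Abcg1 (-1.27), which was called higher with replicates 4 to 6 (1.23). Ch25h, which makes the antiviral oxysterol 25-hydroxycholesterol, moved the other way from the synthesis genes. It stood at 39.3, 82.4 and 90.0 unstimulated and 9820.3, 9457 and 8790.5 stimulated in wild type and at 636, 564 and 564 and 2649, 2725 and 2734 in CB2-/-, a difference of -4.91 ± 0.60 that was called with both baselines. Of 20 genes of the unfolded protein and heat shock response 12 had a lower and none a higher difference, among them the heat shock proteins Hspa1a (-5.19) and Hspa1b (-4.55), the stress pseudokinase Trib3 (-3.59) and the asparagine synthetase Asns (-2.40). Over the list 6 were lower and none higher with replicates 4 to 6, with a median of -0.55 against -0.86, and 5 of the 12 calls were made again. Of the 4 named here Asns alone was called there, and it lost its call without any 1 of 8 libraries.

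**Figure D3:**
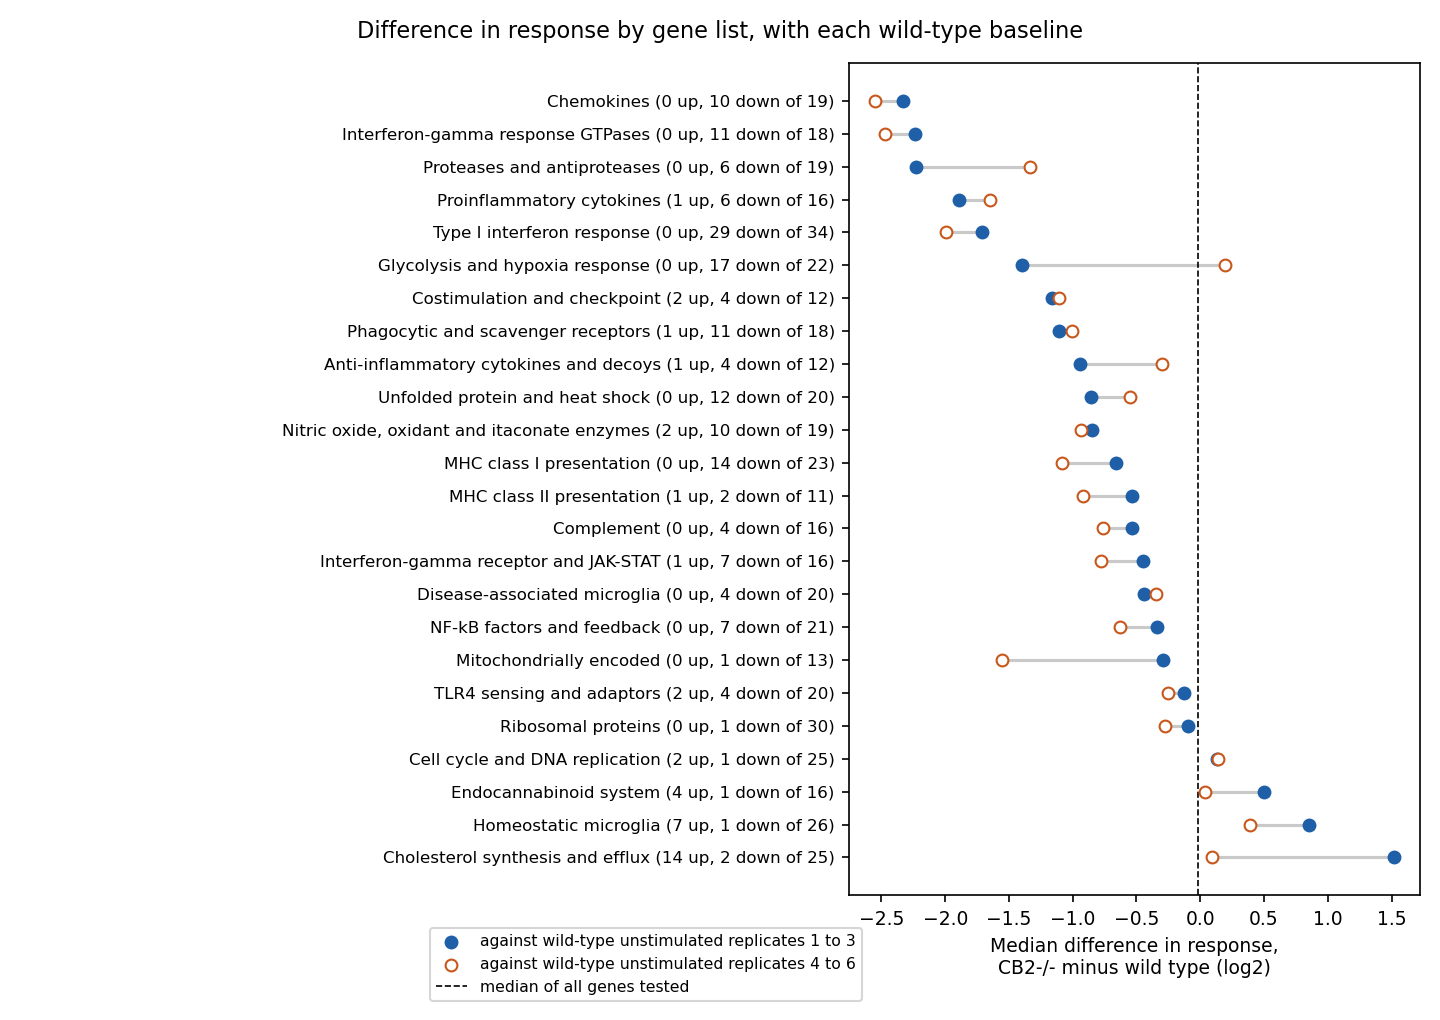
Median difference in response (log2, CB2-/- minus wild type) of the tested members of 24 gene lists, with wild-type unstimulated replicates 1 to 3 (filled) or 4 to 6 (open) as baseline, and in parentheses the members called higher and lower with replicates 1 to 3. Most lists stay below the median of all genes with either baseline. Among them are chemokines, interferon lists and class I genes, but also ribosomal (-0.09 and -0.28) and mitochondrially encoded genes (-0.29 and -1.55). The medians of glycolysis and cholesterol genes move to 0.20 and 0.09 with replicates 4 to 6.

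The remaining lists covered growth, housekeeping genes, the endocannabinoid system and other cell types. Of 25 cell cycle genes 2 had a higher and 1 a lower difference, 12% called, which is near the 12.3% of all genes. They were the proliferation marker Mki67 (4.92 ± 0.93), the replication helicase subunit Mcm4 (1.48 ± 0.34, but 0.63 and not called with replicates 4 to 6) and, lower, the polymerase clamp Pcna (-0.91 ± 0.19). Mki67 stood at 19, 132 and 89.2 unstimulated and 18.9, 17.98 and 22.2 stimulated in wild type and at 5.86, 3.77 and 1.22 and 37.0, 45.8 and 40.6 in CB2-/-. It had no call in wild type (-1.59 ± 0.66) and rose in CB2-/- (3.33 ± 0.66) from an unstimulated level below that of every wild-type library. Ribosomal protein genes gave 1 lower of 30, Rps2 (-0.51 ± 0.13), and mitochondrially encoded ones 1 lower of 13, mt-Nd1 (-0.64 ± 0.20), which lost its call without any 1 of 7 libraries. Under quantile scaling these lists turned, with 6 ribosomal and 2 mitochondrial genes higher and none lower, and medians of 0.30 and 0.36 against -0.09 and -0.29. With replicates 4 to 6, 11 of the 13 mitochondrial genes were lower, with a median of -1.55 against -0.29, and the share of these transcripts in those libraries was 0.763 to 1.42%. Of 16 genes of the endocannabinoid system 4 had a higher and 1 a lower difference, 31% called. Besides Cnr2 these were Daglb, which makes the ligand 2-arachidonoylglycerol (2.28 ± 0.38, and 1.41 with replicates 4 to 6), Abhd12, which breaks it down (0.77), Abhd4, an enzyme of anandamide synthesis (0.80 ± 0.19), and, lower, Ptgs2. Of the markers of other cells, none of 9 astrocyte genes tested and 1 of 10 fibroblast and meningeal genes, Postn, lower at -2.65, were called for the difference. Their medians were -0.92 and -1.19, and 1.11 and 0.54 with replicates 4 to 6, whose marker sums were 1774 to 2995 and 844 to 2711.

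The interaction is the stimulated genotype difference minus the unstimulated one, and the 2 parts were given side by side. Over the 1075 genes that rose in wild type with a lower difference the median unstimulated part was 0.71 and the median stimulated part -0.41, and the unstimulated part was the larger in 696 and the stimulated part in 379. Of the 1075, 763 were called higher in unstimulated CB2-/- cells than in wild-type replicates 1 to 3, 425 were called higher than in replicates 4 to 6 (6.25% of all genes), and 457 were called lower when stimulated. The 501 genes that fell in wild type with a higher difference had medians of -0.82 unstimulated and 0.49 stimulated. Of the 711 genes called lower with both baselines, 423 were also called lower in stimulated CB2-/- cells and 224 of these had no call between unstimulated CB2-/- cells and wild-type replicates 1 to 3, of which 181 had none against replicates 4 to 6 either. For the 230 called higher with both baselines these numbers were 160, 110 and 99. Olfml3, Il4i1 and C5ar1 had no unstimulated call against either baseline. Marco, Ccl5 and Pxdc1 had none against replicates 1 to 3 but were called higher in unstimulated CB2-/- cells than in replicates 4 to 6, by 0.99, 1.75 and 1.14 on the log2 scale. Among the list members named outside the rule for named genes, Ly86, Ebi3, Il4ra, Cxcl2, Cxcl3, Arg2, Ncf4, Scarb1, Icosl, Csf1r, Sall1, Abhd12 and Postn were not called with replicates 4 to 6. Without 1 library, calls were lost for Arg2 (any of the 12), Cxcl3 (any of 10), Ly86 (any of 6), Postn (either of 2), Cxcl2 and Scarb1, at -2.19 and 0.98 without 1 library each. Each of these parts carries the number series with the genotype, except that against replicates 4 to 6. In that part the genotypes still carry separate blocks of numbers within the second series.

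**Figure D4:**
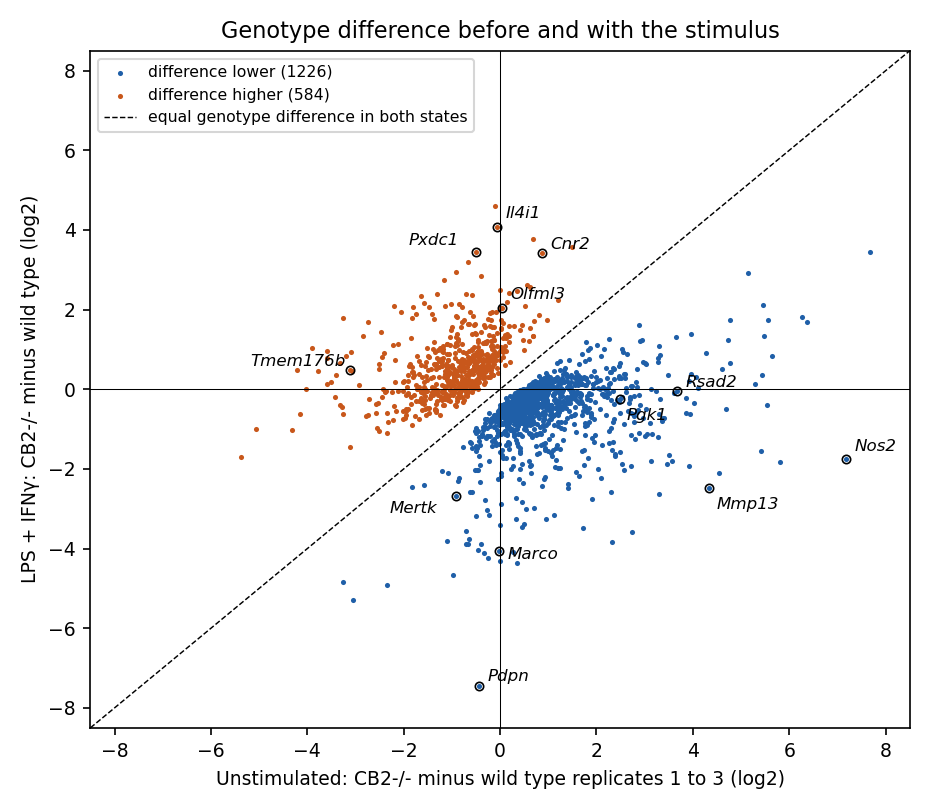
Genotype difference without stimulus (x axis, CB2-/- minus wild-type replicates 1 to 3, log2) against that with LPS plus interferon-γ (y axis, log2) for the 1810 called genes; the vertical distance from the dashed line is the difference in response. Many blue points (1226, lower) lie right of 0 on the x axis, and Marco, at -0.02 and -4.06, lies far below the line near 0 on the x axis.

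The same contrast for the other stimuli shares the unstimulated libraries with this one, so values are only set side by side. For Marco the difference in response was -4.04 with LPS and interferon-γ, -3.10 with PolyI:C, a ligand of TLR3, and -4.37 with CpG, a ligand of TLR9. For Cxcl10 the 3 values were -4.46, -6.18 and -1.23, and for Mertk -1.77, 1.32 and 0.030. Il4i1 stood at 4.15, -0.15 and 4.48, and Olfml3 at 2.01, 2.83 and -0.19.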

How the data were processed

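RNA of 27 samples was sequenced by the authors as 75 bp single-end reads. Per the labels' protocols 2 library preparations were used, without an assignment to libraries, and the tools named, with no role or order, are DESeq2, kallisto and CASAVA 1.8 (per the submitters' processing notes). The genome build was not given in the sources used here. Deposited by the authors were normalised counts, taken as a signal that is never negative; 25.7 to 64.4% of low values in the 12 libraries were whole steps (tolerance 0.01), so whole reads were not recovered and no count test was run. The authors' batch-corrected table, on another scale (log2), served as an alternative.

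All 27 libraries, as 9 cells with unstimulated wild type divided by number series, entered 1 limma 3.58.1 fit (R 4.3.3, trend, two-sided, Benjamini-Hochberg) of log2(value + 1) over genes with at least 10 in at least 3 libraries. Members and lists were chosen with earlier results of these data known. Named genes are the 10 highest and 10 lowest differences, 5 each way among genes that rose or fell in wild type (called, mean of at least 100 in 1 group, no overlap of responses), up to 4 per list and a panel of 24. List members counted in small numbers outside this rule, Gm19220, Gm26822 and Grip2 were added after their values were seen. Of the genes the rule names, 1 is not reported here. The fit was also run on simulated data with the same spread setting for all genes and no series effect on the response. That run therefore does not bear on genotype and number series coinciding. Positions are from GENCODE M21 on GRCm38 (23950 of 23995 identifiers matched) and promoters from RefSeq on GRCm38.p6 (106 of 144 named symbols matched). No replicate pair held identical values. Alternatives varied the pseudocount, filter, scaling, table, libraries, baseline, variance model and fold threshold, and left out each library. Python 3.11.15, pandas 2.3.3 and matplotlib 3.10.9 were used.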

Additional observations from a re-analysis of the deposited data

Results flagged for a closer look

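The test of the difference in response to LPS plus interferon-γ between the genotypes put 1226 genes lower and 584 higher in CB2-/- (limma, adjusted p under 0.05), and of the genes named in the report the following were among them, as log2 differences with wild-type replicates 1 to 3. In interferon response and class I genes the difference was -3.85 for Iigp1, -3.72 for Rsad2, -3.53 for Gbp4, -3.46 for Gbp2, -3.37 for Ifi47, -3.31 for Oasl1, -3.20 for Zbp1, -2.70 for Ifit3, -2.34 for H2-Q6, -2.04 for H2-T23, -1.84 for Tap1 and -1.75 for H2-Q7. In class II and costimulatory genes the difference was -4.03 for H2-Eb1, -3.03 for H2-Ab1, -2.94 for Cd274, -2.40 for Tnfsf9, -2.19 for Cd40, -2.17 for Cd86, 0.55 for Cd74, 1.98 for Vsir and 2.13 for Icosl. In chemokines the difference was -7.62 for Ccl7, -6.96 for Ccl2, -4.88 for Ccl12, -4.46 for Cxcl10, -4.11 for Cxcl3, -3.52 for Cxcl11, -3.12 for Ccl4, -2.58 for Cxcl2, -2.33 for Ccl3 and -0.84 for Ccl5. In cytokines and their receptors and decoys the difference was -5.37 for Lif, -5.33 for Il6, -4.46 for Il1a, -3.37 for Il1rn, -3.16 for Tnf, -1.71 for Osm, -1.44 for Il18bp, -1.07 for Tgfb1, -0.82 for Il4ra, 0.90 for Il10ra and 1.11 for Ebi3. In sensing and signalling genes the difference was -4.16 for Socs1, -3.69 for Traf1, -2.42 for Socs3, -1.94 for Cd180, -1.84 for Zc3h12a, -1.57 for Tnfaip3, -1.53 for Tnip3, -1.20 for Jak2, -0.94 for Ticam2, -0.92 for Irak2, -0.77 for Irak3, 0.87 for Ly86, 0.93 for Irak4 and 1.72 for Ifngr1. In nitric oxide, prostaglandin and oxidant enzymes the difference was -8.93 for Nos2, -4.18 for Ptgs2, -4.16 for Ptges, -4.07 for Slc7a2, -3.41 for Acod1, 0.68 for Ncf4 and 2.25 for Arg2. In proteases the difference was -6.80 for Mmp13, -6.65 for Mmp10, -4.82 for Mmp12 and -4.40 for Mmp8. In phagocytic receptors and complement the difference was -4.04 for Marco, -3.76 for Cfb, -3.28 for Cd36, -2.65 for Clec4e, -2.62 for Olr1, -1.96 for Cfp, -1.77 for Mertk, -1.14 for C5ar1, -0.84 for C3ar1 and 1.19 for Scarb1. In genes of resting and disease-associated microglia the difference was -2.76 for Itgax, -2.24 for Spp1, -1.795 for Lgals3, -0.92 for Cd63, 1.27 for Sall1, 1.31 for Tgfbr1, 1.55 for Csf1r, 1.61 for Cx3cr1, 2.01 for Olfml3, 2.92 for Gpr34 and 3.63 for Tmem119. In metabolic and stress genes the difference was -5.19 for Hspa1a, -4.91 for Ch25h, -4.55 for Hspa1b, -3.59 for Trib3, -2.73 for Pgk1, -2.65 for Hk3, -2.40 for Asns, -2.33 for Slc16a3, -2.21 for Bnip3, -1.27 for Abcg1, 2.21 for Mvd, 2.25 for Idi1 and 2.32 for Insig1. In genes of the endocannabinoid system, the cell cycle, ribosomes and mitochondria, and the marker Postn the difference was -2.65 for Postn, -0.91 for Pcna, -0.64 for mt-Nd1, -0.51 for Rps2, 0.77 for Abhd12, 0.80 for Abhd4, 1.48 for Mcm4, 2.28 for Daglb, 2.54 for Cnr2 and 4.92 for Mki67. In the remaining genes the difference was -7.01 for Pdpn, -5.93 for AA467197, -5.92 for Upp1, -5.84 for 2010005H15Rik, -2.29 for Cd93, -1.94 for Cd200r1, -1.22 for Ctla2b, -1.04 for Ctsl, 1.29 for Orai2, 1.32 for Abcc5, 1.39 for Slc2a6, 1.95 for Mfsd7a, 2.40 for Vnn3, 3.34 for Arhgap19, 3.53 for Csad, 3.60 for Tmem176b, 3.66 for Gm31374, 3.96 for Pxdc1, 3.99 for Abhd15, 4.03 for Col27a1, 4.15 for Il4i1 and 4.24 for Capn3. Il12b, Il12rb1 and Ciita, with a group at 0 in every library, were left out.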

How the results depend on the processing

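No paired analysis was possible because replicates were numbered in the order of the records and the labels pair no libraries. Over 26 alternatives, 3717 values of the difference were obtained for the 143 genes named, of which 3377 kept their direction and their side of the threshold, 312 kept the direction and lost the call, 12 gained one and 16 turned in sign; 52 of the 135 called genes were not called with replicates 4 to 6, 8 of them with the sign turned, and Cd74 and Abcg1 were called the other way.
The counts that follow are of genes called higher or lower for the difference, then of the classes given in the report (rose in wild type with a higher difference, fell with a higher difference, fell with a lower difference, no call in wild type). The batch-corrected table gave 1138 higher, with classes of 41, 943, 55 and 366. With only the 12 libraries in the fit there were 999 higher, and 38, 847, 65 and 295. With replicates 4 to 6 as baseline the first class held 6, and with all 6 wild-type unstimulated libraries 360 were higher and the classes held 7, 322, 14 and 99. Without the variance trend 14 fell with a lower difference. Library weights gave 1885 higher and 2568 lower, 3005 rising and 2598 falling in CB2-/-, 2147 that rose in wild type with a lower difference, and 76, 1512, 96 and 622. Against a log2 difference of 1 (treat) there were 24 higher and 121 lower, 1074 and 597 rising and falling in wild type, 436 and 200 in CB2-/-, 112 that rose with a lower difference, and 0, 20, 0 and 13. At an unadjusted p under 0.05 there were 3533 differences in either direction (limma). The cause of these changes was not tested, except that fits with fewer libraries or another variance model estimate the spread anew. Leaving out each library in turn gave 433 to 617 higher and 996 to 1306 lower, and 11 to 21, 364 to 515, 14 to 19 and 134 to 232 in the classes.
Cnr2 missed the threshold with a pseudocount of 0.5 (2.57), under treat (2.54) and without any 1 of 9 libraries (2.40 to 2.58); over all 12 left out in turn it was 2.40 to 2.67. Signs turned with replicates 4 to 6 for Irak2 (0.016), Il10ra (-0.034), H2-Ab1 (0.96), Cd74 (-2.13), Tnfsf9 (0.43), Slc16a3 (0.37), Bnip3 (1.19), Il1b (-2.47), Ncf4 (-0.20), Sall1 (-0.17), Abcg1 (1.23) and Arg1 (4.13), with all 6 for Cd74 (-0.79) and Il1b (-1.19), and for Il1b also without wild-type unstimulated replicate 1 (-0.081) or stimulated replicate 3 (-0.011), with a range of -0.081 to 0.29 over the 12 libraries. Low genes such as Il12rb1 and Ciita are limited by depth, since 1 read there moves the log2 value most.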
